A study of Mus musculus with 6 samples.

Results

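Autism-linked chromatin regulators were followed through an array study of embryonic mouse cortex that carried extra copies of Cyfip1. The genes were named from human genetics, and the choice was made with earlier results of these data known. They were Chd8, Chd2, Adnp, Arid1b, Pogz, Dyrk1a, Ehmt1, Setd5 and Tbl1xr1, 9 in all. The platform annotation named 12 probes for 7 of them, out of 25697 probes and 16593 named genes on the array. Chd2, a remodelling helicase, and Arid1b, a DNA-binding subunit of the BAF remodelling complex, had no named probe and were not analysed here. Pogz had 3 probes, Ehmt1 had 4 and each of the other 5 genes had 1, and the brightest probe of a gene stands for it in counts and medians.

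The samples were frontal cortex of male C57BL/6J embryos at embryonic day 15. 3 embryos were transgenic for a bacterial artificial chromosome, clone RP24-333C15, which spans Cyfip1 and had been injected into pronuclei, and 3 were wild-type littermates. The labels do not say how many founder lines were used or how many copies the transgene had. Each embryo had its own Illumina MouseRef-8 v2.0 bead array with a single colour. With 1 array per embryo, precision is set by how few embryos there are. Values are log2 intensities that the authors quantile-normalized, and differences are transgenic minus wild-type on the log2 scale.

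Chromatin regulators of this kind set which genes a dividing progenitor or a newborn neuron can use. They slide nucleosomes, place or read methyl groups on histone H3, or carry deacetylases to promoters, and loss of 1 copy of many of them in humans is linked to autism and intellectual disability. In the fetal cortex they are expressed in progenitors and in neurons, and many work as subunits of larger assemblies, so their partners are described beside them.

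The arrays differed in ways that genotype does not describe, and these bear on every value below. Transgenic sample 1 and wild-type sample 3 carry animal numbers under 100 in the labels, and the other 4 carry numbers over 200. The labels do not explain them. The muscle and skin list, 13 tested genes, averaged 2.50 relative to the 6-array mean in transgenic sample 1, with 0.69 for wild-type sample 3 and -0.86 to -0.66 for the rest. Tbr1, a transcription factor of deep-layer cortical neurons, stood at 7.09 in wild-type sample 2, close to the array median of 7.18, at 9.09 in transgenic sample 3 and between 10.01 and 11.16 elsewhere. En2, a midbrain and hindbrain factor, was at 12.23 and 10.98 in those same samples and between 7.01 and 9.0 in the other 4. En1, Irx3, Barhl1 and Lhx5 of the midbrain and hindbrain list were also highest in those samples. Irx1 and Irx2 were highest in wild-type sample 2, with transgenic sample 2 next. Hoxa2, Hoxa5 and Hoxb2 were instead highest in transgenic samples 1 and 2, Hoxa5 at 7.67 and 8.29 there and at 6.65 to 7.24 elsewhere. The label of frontal cortex therefore goes against Tbr1 and En2 most clearly in wild-type sample 2. The results were recomputed without such samples.

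What most of the regulators' genes share in sequence can be seen just upstream of their start sites, and 4 stretches are printed to show it. RefSeq windows of the assembly GRCm38.p6 matched 8 of the 9 genes by symbol, with 10 windows in all, 3 of them for Dyrk1a. The median GC content of these windows over the 250 bases before the start was 69.6%, against 52.4% for all 32851 windows, and the median number of CpG dinucleotides was 17.5 against 6. GGGCGG, the letters of a GC box, were found on either strand in 8 of the 10 windows, from 7 of the 8 genes, and in 32.7% of all windows. The Setd5 window had no such match, 36.8% GC and no CpG. GC content was also low for Pogz, at 47.2%, and for a Dyrk1a window, at 27.2%. The ETS core CGGAAG was found for 2 genes (13.6% of all windows) and the first letters of a cyclic AMP response element, TGACGT, for 2 genes (6.47%), and these were the same 2, Adnp and Pogz, while 1.49% of all windows hold both. GCCATNTT was found in windows of Dyrk1a and Arid1b (3.91% of all windows). The motifs were picked after the windows had been seen, and a match describes letters, not a bound site.

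The last 150 bases before the annotated start are shown for Adnp and Pogz, which hold both rarer motifs, and for Chd8 and Ehmt1, which hold the GC box alone. They lie at chr2:168207113-168207262 on the minus strand, chr3:94837287-94837436 on the plus strand, chr14:52257761-52257910 on the minus strand and chr2:24919610-24919759 on the minus strand. Capitals mark matches to the GC box, the ETS core and the response element on either strand. In Pogz a GC box and an ETS match overlap, and in Adnp the response element and the ETS match adjoin.
Adnp: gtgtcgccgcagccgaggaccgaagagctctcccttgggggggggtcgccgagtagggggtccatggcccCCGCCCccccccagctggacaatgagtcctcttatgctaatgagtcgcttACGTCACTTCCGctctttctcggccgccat
Pogz: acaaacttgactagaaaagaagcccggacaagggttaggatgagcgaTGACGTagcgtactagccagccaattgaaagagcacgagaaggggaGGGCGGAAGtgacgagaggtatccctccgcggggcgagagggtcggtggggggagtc
Chd8: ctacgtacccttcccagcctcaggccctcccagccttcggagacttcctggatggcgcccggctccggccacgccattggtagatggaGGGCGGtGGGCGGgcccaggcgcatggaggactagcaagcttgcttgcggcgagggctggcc
Ehmt1: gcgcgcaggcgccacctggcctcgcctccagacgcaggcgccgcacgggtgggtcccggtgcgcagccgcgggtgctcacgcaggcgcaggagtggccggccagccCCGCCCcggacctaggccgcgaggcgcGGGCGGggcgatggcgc

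None of the 7 regulators measured passed the test between genotypes, and their differences were small. By brightest probe 6 of 7 were lower in transgenic samples on average and 1 was higher, between -0.26 for Pogz and 0.08 for Tbl1xr1, with a median of -0.12. Over all 12 probes of the 7 genes 10 lay below 0, where 54.0% of the 25697 probes did. Over all 12848 probes tested, those brighter than the median probe, 56.2% lay below 0 and the median was -0.03. The share of the array below 0 depended on the scaling. It was 43.5% with arrays scaled to a common median (median of all probes 0.03) and 50.26% under cyclic loess (median 0.00). Of the 7 regulators 6 lay below 0 under both, but under median scaling Setd5 was only at -0.003 (SE 0.22) and Dyrk1a at -0.03. By limma's moderated test with Benjamini-Hochberg adjustment 0 probes of the whole array were higher and 0 were lower at an adjusted p under 0.05 (0% each), and 0 of the 8 tested member probes had an unadjusted p under 0.05, where 3.47% of all tested probes were higher and 3.51% lower at that level (446 and 451, together 6.98%). The smallest adjusted p of a member probe was 0.675. Of the 7 brightest probes 1, of Ehmt1, had groups that did not overlap, where 8.25% of tested probes had all transgenic values below all wild-type values.

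**Figure D1:**
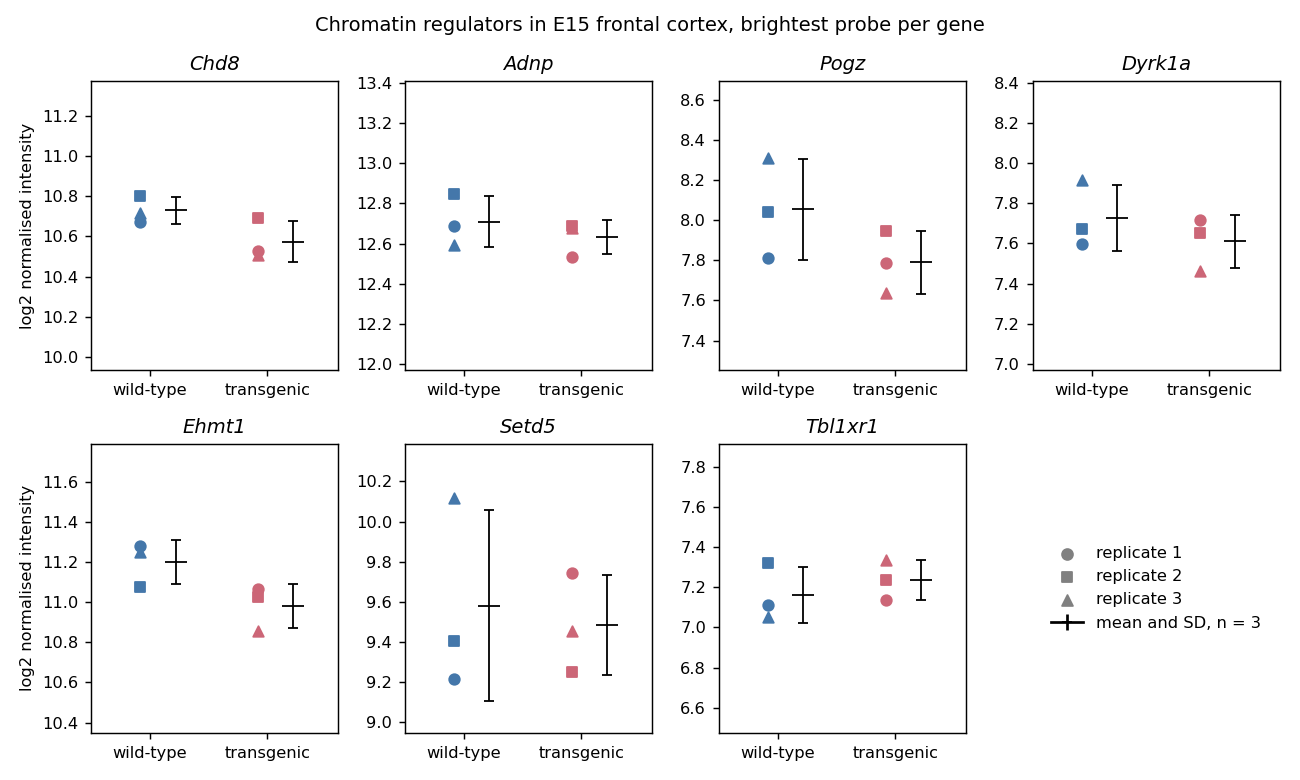
Log2 normalised intensity (vertical axis) of the brightest probe of each of the 7 measured regulators in wild-type (blue) and transgenic (red) embryos, with the symbol giving the replicate and black bars the mean and SD of 3 samples. Every panel spans the same height on the log2 scale. Ehmt1 is the only panel whose groups do not overlap, and Setd5 has the widest spread.

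Among the readers and writers of histone methylation, Ehmt1 came closest to a difference. Ehmt1, also called GLP, pairs with Ehmt2 to add methyl groups to lysine 9 of histone H3. Its brightest probe, ILMN_2683675, was at 11.06, 11.03 and 10.86 in transgenic samples 1, 2 and 3 and at 11.28, 11.08 and 11.25 in wild-type samples 1, 2 and 3. All transgenic values lay below all wild-type values, although transgenic sample 1 and wild-type sample 2 were 11.06 and 11.08. The difference was -0.22 (SE 0.11, 95% interval -0.49 to 0.06), a ratio of 0.860, and did not pass (limma adjusted p = 0.675). The second tested probe, ILMN_2603660, had means of 8.72 ± 0.24 and 9.0 ± 0.14 (SD, n = 3 each) and differed by -0.28 (SE 0.15, limma adjusted p = 0.675). Its groups overlapped, and transgenic sample 3, at 8.44, was the lowest sample for both probes. The remaining Ehmt1 probes were dimmer than the median probe and untested. ILMN_2757855 differed by -0.12 with groups that did not overlap, and ILMN_2633604 by 0.00. For comparison, 6.9% of all 25697 probes had every transgenic value below every wild-type value.

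Setd5, a SET-domain protein that associates with HDAC3 and the PAF1 complex, varied most among embryos. It stood at 9.75, 9.25 and 9.46 in transgenic samples 1, 2 and 3 and at 9.22, 9.41 and 10.12 in wild-type samples 1, 2 and 3. Its highest values came from wild-type sample 3 and transgenic sample 1, the embryos numbered under 100, and both lay above all 4 embryos numbered over 200. The genotype difference was -0.10 (SE 0.26, 95% interval -0.71 to 0.52, limma adjusted p = 0.911). Within the pair numbered under 100 it was -0.37, and among the other 4 embryos it was 0.04, so its sign did not hold within both ranges. Leaving out wild-type sample 3 alone turned it to 0.17, and leaving out transgenic sample 2 alone to 0.02. With the number range as a block the SE was 0.13 and the difference still did not pass (limma adjusted p = 0.736). The mean of the embryos numbered under 100 was 9.93 and that of the others 9.33. Brightest probes of 3 of the 7 regulators, Setd5, Dyrk1a and Adnp, did not overlap between the number ranges, where 30.7% of all tested probes did not. The mean of the muscle and skin list was also highest in these 2 embryos, although single genes such as Krt8 and Krt18 were brighter in transgenic sample 3 than in wild-type sample 3. Their part in the Setd5 values was not tested.

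The remodelling helicase Chd8 and the zinc finger homeodomain protein Adnp had mean differences below 0 that did not pass. Chd8 binds the promoters of many genes of brain development. It was at 10.53, 10.69 and 10.51 in transgenic samples 1, 2 and 3 and at 10.67, 10.80 and 10.71 in wild-type samples 1, 2 and 3. Transgenic sample 2, at 10.69, lay within the wild-type values, while the other transgenic samples lay below them. The difference was -0.16 (SE 0.11, 95% interval -0.41 to 0.10), which did not pass (limma adjusted p = 0.695).

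Adnp forms the ChAHP complex with Chd4 and HP1 proteins and represses lineage genes. It was at 12.53, 12.69 and 12.68 in transgenic samples 1, 2 and 3 and at 12.69, 12.85 and 12.59 in wild-type samples 1, 2 and 3. Wild-type sample 2 lay above all transgenic values and transgenic sample 1 below all wild-type values, while wild-type sample 1 and transgenic sample 2 were level. The difference of -0.08 (SE 0.11, 95% interval -0.35 to 0.20, limma adjusted p = 0.839) was smaller than the SD of either group, 0.09 and 0.13. With 1 sample left out it ranged from -0.14 (wild-type 3 left out) to -0.01 (wild-type 2 left out), and it became 0.04 when transgenic sample 1 and wild-type sample 2 were left out together. The probe was far above the median intensity, with scanner intensities of 4876 to 8173.

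Pogz, a zinc finger protein with a transposase-derived domain that binds HP1, had the difference of greatest size among the 7 in these values. That of Ehmt1 was greater under median scaling, under cyclic loess, and wherever wild-type sample 2 or 3 was left out, as among the 4 embryos numbered over 200. Setd5 also exceeded Pogz in size without transgenic 1 and wild-type 2 (-0.31 against -0.27). Without wild-type 3 it did so with the other sign (0.17 against -0.14). The brightest Pogz probe, ILMN_2857204, was at 7.78, 7.95 and 7.64 in transgenic samples 1, 2 and 3 and at 7.81, 8.04 and 8.31 in wild-type samples 1, 2 and 3. Wild-type sample 3 was the highest and transgenic sample 3 the lowest, and the groups overlapped between 7.81 and 7.95. The difference was -0.26 (SE 0.16, 95% interval -0.65 to 0.12, limma adjusted p = 0.680). It was -0.53 within the pair of embryos numbered under 100 and -0.13 among the 4 numbered over 200, and with 1 sample left out it ranged from -0.39 (wild-type 1 left out) to -0.14 (wild-type 3 left out). The other Pogz probes lay just under the intensity filter, at means of 7.16 and 7.11 where the filter was 7.18, and differed by -0.15 and -0.12. ILMN_1231788 was 7.02, 7.18 and 7.06 in transgenic samples 1, 2 and 3 and 7.21, 7.24 and 7.24 in wild-type samples 1, 2 and 3, without overlap.

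The kinase Dyrk1a and the corepressor subunit Tbl1xr1 were read by dim probes. Dyrk1a lies in the human Down syndrome region and phosphorylates Lin52, a step in assembly of the cell-cycle repressor complex DREAM. It was at 7.72, 7.65 and 7.46 in transgenic samples 1, 2 and 3 and at 7.60, 7.67 and 7.91 in wild-type samples 1, 2 and 3. The groups overlapped between 7.60 and 7.72. The difference was -0.12 (SE 0.13, 95% interval -0.43 to 0.20, limma adjusted p = 0.783). With 1 sample left out it ranged from -0.18 (wild-type 1 left out) to -0.03 (wild-type 3 left out), and it was -0.03 under median scaling.

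Tbl1xr1 is a WD-repeat protein of the NCoR corepressor complex. It was at 7.14, 7.24 and 7.34 in transgenic samples 1, 2 and 3 and at 7.11, 7.32 and 7.05 in wild-type samples 1, 2 and 3. It was the only one of the 7 with a difference above 0, 0.08 (SE 0.12, 95% interval -0.21 to 0.36, limma adjusted p = 0.850). Its mean of 7.20 cleared the filter by 0.02, and its scanner intensities of 121.5 to 201.8 were close to the array medians of 130.3 to 178.5. A dim probe understates fold changes, so the Tbl1xr1 and Dyrk1a intervals limit only the measured intensities. The same limit holds for the brightest Pogz probe, at 202.9 to 288 on the scanner where Dyrk1a was at 182.3 to 230.9.

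**Figure D2:**
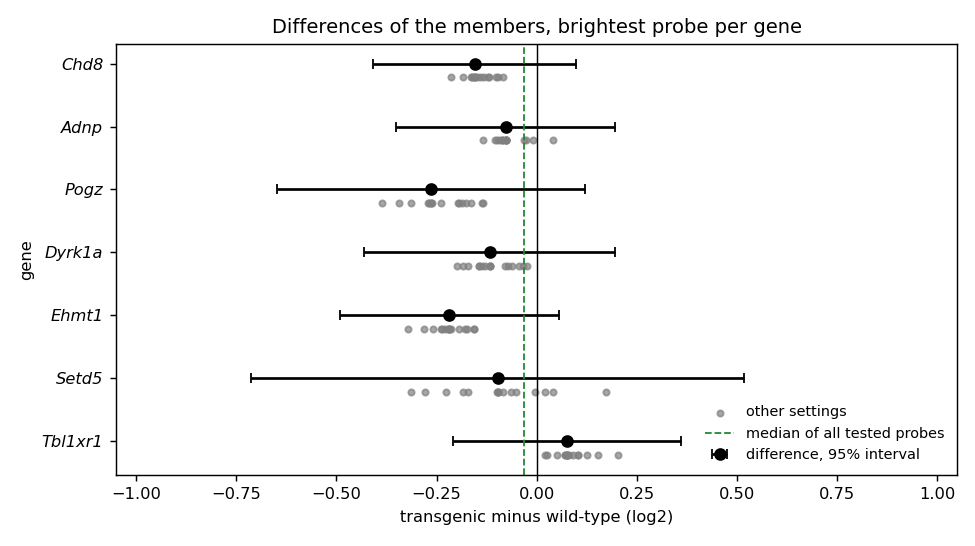
Difference between transgenic and wild-type means on the log2 scale (horizontal axis) for the brightest probe of each regulator, with its 95% interval from limma. Grey points are the same difference under the other settings and sample sets, and the dashed line is the median of all tested probes at -0.03. Every interval includes 0, and Setd5 has the widest interval, -0.71 to 0.52.

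All 7 intervals together lay between -0.71 and 0.52, so a change of 1 on the log2 scale, in either direction, was outside each of them for the measured intensities. In fold terms the interval was 0.754 to 1.07 for Chd8, 0.785 to 1.15 for Adnp, 0.711 to 1.04 for Ehmt1 and 0.611 to 1.43 for Setd5. Changes inside an interval could not be told from 0 with 3 samples a group. 5 of the 7 SEs were below the median SE of all tested probes, 0.147. They include the dim probes of Tbl1xr1 (SE 0.12) and Dyrk1a (SE 0.13), where a small SE describes the measured intensity only.

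The regulators did not vary as 1 block among embryos. Pogz, Dyrk1a and Setd5 were highest in wild-type sample 3, Chd8 and Adnp in wild-type sample 2, Ehmt1 in wild-type sample 1 and Tbl1xr1 in transgenic sample 3. Chd8, Pogz, Dyrk1a and Ehmt1 were lowest in transgenic sample 3. Averaged over the 7 genes after subtraction of each probe's own mean, wild-type sample 3 stood at 0.17 and wild-type sample 2 at 0.06, and the others at -0.05 (wild-type 1), -0.03 (transgenic 1), -0.04 (transgenic 2) and -0.11 (transgenic 3). Wild-type sample 1 was thus below transgenic samples 1 and 2, and the genotypes overlapped.

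**Figure D3:**
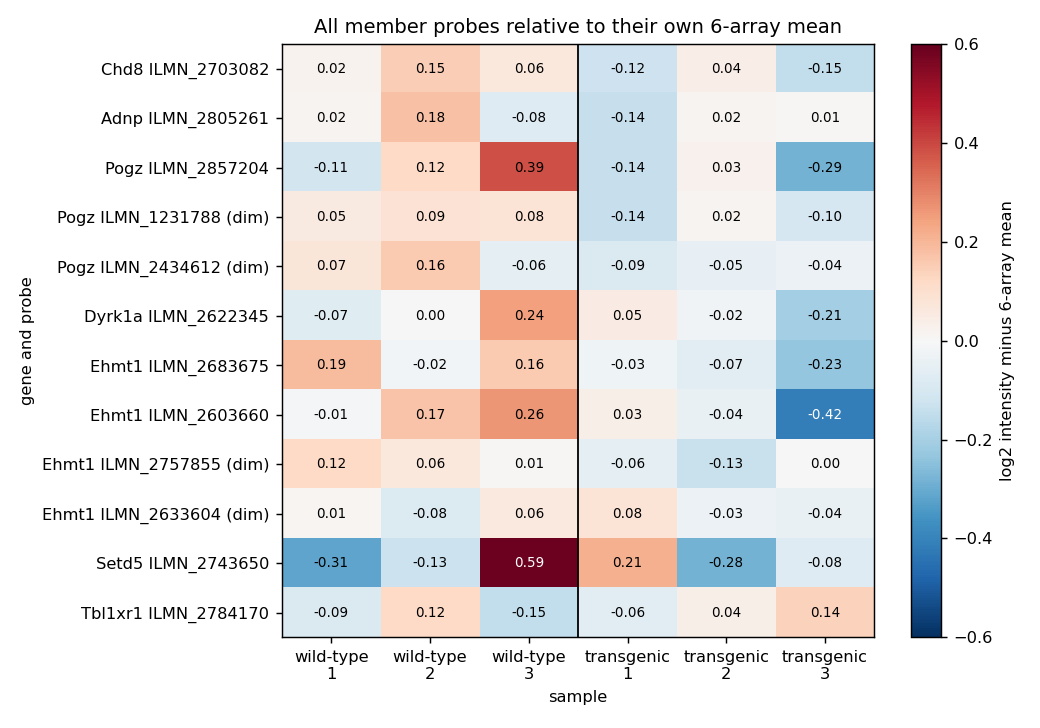
All 12 probes of the 7 regulators (rows) in the 6 embryos (columns, wild-type left of the line), coloured and labelled by log2 intensity minus the probe's own 6-array mean. Probes marked dim were below the intensity filter. The deepest colours are Setd5 in wild-type sample 3 and Ehmt1 probe ILMN_2603660 in transgenic sample 3.

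Marker genes of cell types also differed between the same embryos. The neuron list, 12 tested genes, had means of -0.09, 0.39 and -0.30 in transgenic samples 1, 2 and 3 and 0.19, -0.33 and 0.13 in wild-type samples 1, 2 and 3. In wild-type sample 2 Tbr1 was at 7.09 (6-array mean 9.76) and Neurod2 at 7.66 (9.02). Neurod6, Bcl11b and Map2 also lay below their own means there. Mapt, Gap43, Stmn2, Dcx, Syt1, Tubb3 and Rbfox3 lay above theirs, so this list mean did not measure the amount of neurons alone. By difference 4 of the 12 genes lay above 0 and 8 below (median -0.18), where 56.2% of all tested probes lay below 0. Dcx, a microtubule protein of young neurons, differed by -0.36 without overlap and Mapt, the axonal protein tau, by -0.54, while Tbr1 differed by 1.09. The neural progenitor list, 9 tested genes, had means of 0.27, 0.00 and -0.10 in transgenic samples and 0.33 in wild-type sample 3, against -0.24 and -0.25 in wild-type samples 1 and 2, and 7 of its genes had a difference above 0. Wild-type sample 3, where Pogz, Dyrk1a and Setd5 were highest, thus had the highest progenitor mean. Meningeal and fibroblast genes, all 11 with a difference above 0, had list means that ranged from 0.22 to 1.59 in transgenic and from -1.23 to 0.19 in wild-type samples. Microglia and macrophage genes, all 10 above 0, ranged from 0.23 to 0.47 and from -0.59 to 0.10. Vessel genes, 9 of 10 above 0, ranged from -0.01 to 0.37 and from -0.41 to 0.07. Choroid plexus genes, 6 of 7 above 0, ranged from 0.11 to 1.68 and from -1.47 to 0.23. Midbrain and hindbrain genes, 4 of 10 above 0, ranged from -0.50 to 0.31 and from -0.93 to 1.36, and blood genes, 1 of 4 above 0, from -0.45 to 0.35 and from 0.05 to 0.40. The part of these cell types in the regulators' values was not tested, and fewer cells of a type cannot be told apart from less RNA per cell in bulk tissue.

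The median of the 7 differences was -0.20 when transgenic 1 and wild-type 2 were left out. When wild-type 2 and transgenic 3 were left out, a choice made after seeing the data, it was -0.08. The number below 0 was 5 in the first case and 6 in the second. Within the number ranges the median was -0.19 in the pair numbered under 100, with 6 of 7 below 0, and -0.09 among the 4 numbered over 200, with 5 of 7 below 0.

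Partners and relatives of the regulators were read in 7 lists that hold 106 genes. 85 had a probe and 72 were tested, of which 24 lay above 0 and 48 below, or 66.7% below where the array had 56.2%. Their median was -0.08. The partner lists were read with the authors' normalization only. The share of the array below 0 was 43.5% under median scaling and 50.26% under cyclic loess, and the partners' share under these was not computed. By limma 0 of the 72 passed, and 0 higher and 3 lower had an unadjusted p under 0.05, 4.17% of the tested partners where 6.98% of all tested probes were called. The 3 were Ctr9, Myt1l and Rai1.

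Remodelling enzymes and BAF subunits went both ways. Of the CHD helicases other than Chd8, 3 were tested, 1 above 0 and 2 below (median -0.12). Chd5, a neuronal helicase, averaged 9.92 ± 0.69 in transgenic samples against 10.65 ± 0.55 in controls (SD, n = 3 each), and its difference of -0.72 (SE 0.41) did not pass (limma adjusted p = 0.675). Chd4, the NuRD helicase and partner of Adnp, differed by -0.12 (SE 0.17, limma adjusted p = 0.821), and its other probes did not share a sign. ILMN_2654822 differed by 0.09 (SE 0.21), and ILMN_2697652 by -0.36 (SE 0.15) without overlap and with an unadjusted p of 0.0475 (limma adjusted p = 0.675). The median of 18 tested BAF genes was -0.12, with 6 above 0 and 12 below. Brd9, a bromodomain subunit of the non-canonical BAF complex, differed by -0.32 (SE 0.14) without overlap between the groups. Smarcd2, a subunit known from myeloid cells, differed by 0.90 (SE 0.41), also without overlap, and stood at 11.24 in transgenic sample 1 against 9.09 to 9.92 elsewhere. That sample also had the highest mean of the muscle and skin list. Wild-type sample 3, with the next highest, had Smarcd2 at 9.72, below the 9.92 of transgenic sample 3. A part of muscle and skin in the Smarcd2 values was not tested. Neither Brd9 nor Smarcd2 passed (limma adjusted p = 0.675 for both).

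Partners of Ehmt1, Pogz and Adnp on methylated chromatin had a median of -0.15, with 2 of 8 above 0 and 6 below. Champ1, a zinc finger protein that binds Pogz, averaged 7.77 ± 0.03 in transgenic samples and 8.0 ± 0.15 in controls without overlap, a difference of -0.24 (SE 0.11, limma adjusted p = 0.675). Cbx1, an HP1 protein, differed by 0.24 (SE 0.13, limma adjusted p = 0.675). Ehmt2, the partner enzyme of Ehmt1, differed by -0.20 (SE 0.13, limma adjusted p = 0.692), and is named here for that role after its value was seen.

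Partners of Tbl1xr1 and Setd5 were measured in 2 lists. In the NCoR and HDAC3 list 1 of 4 lay above 0 and 3 below (median -0.08), with the methyl-CpG binding protein Zbtb33 at -0.15 (SE 0.15) and the deacetylase Hdac3 at -0.09 (SE 0.14). In the PAF1 list, which travels with RNA polymerase II, 2 of 5 lay above 0 and 3 below (median -0.04). Its scaffold Ctr9 was at 8.36, 8.23 and 8.22 in transgenic samples 1, 2 and 3 and at 8.58, 8.75 and 8.74 in wild-type samples 1, 2 and 3. All transgenic values were below all wild-type values, and the difference of -0.42 (SE 0.11) had an unadjusted p of 0.00581 but did not pass over all probes (limma adjusted p = 0.675). Leo1, another subunit, differed by -0.14 (SE 0.11, limma adjusted p = 0.708).

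Relatives of Dyrk1a and the DREAM subunits had the only median above 0 among the 7 partner lists, 0.05, with 5 of 9 above 0 and 4 below. Dyrk3 differed by -0.28 (SE 0.17) and Dyrk2 by -0.10 (SE 0.11), and neither passed (limma adjusted p = 0.689 and 0.782).

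Other nuclear regulators linked to autism had a median of -0.08, with 7 of 27 above 0 and 20 below. Myt1l, a zinc finger factor that represses non-neuronal genes in neurons, was at 9.62, 10.20 and 9.72 in transgenic samples 1, 2 and 3 and at 10.44, 10.82 and 10.65 in wild-type samples 1, 2 and 3. The groups did not overlap, and the difference of -0.79 (SE 0.19, unadjusted p 0.00455) did not pass over all probes (limma adjusted p = 0.675). Rai1, the gene of Smith-Magenis syndrome in humans, differed by -0.34 (SE 0.12, limma adjusted p = 0.675), while its other, dim probe differed by 0.09.

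**Figure D4:**
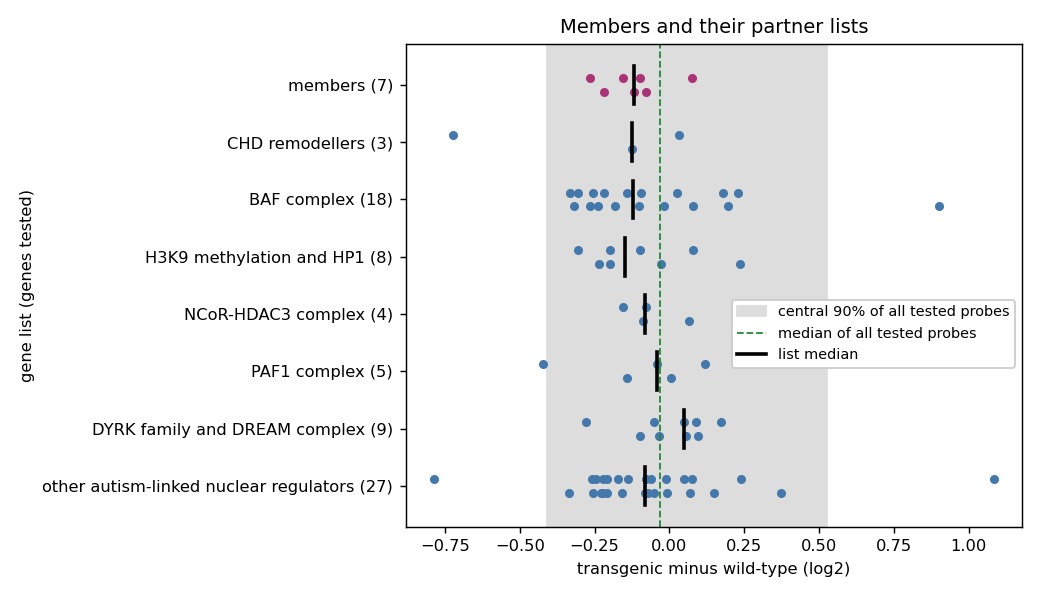
Difference between transgenic and wild-type means on the log2 scale (horizontal axis) for each tested gene, by list, with the 7 regulators in the top row and the number of tested genes in brackets. Black ticks are list medians, the grey band holds the central part of all tested probes, from -0.41 to 0.53, and the dashed line is their median of -0.03. All 7 regulators lie inside the band, and the partners outside it include Chd5, Smarcd2, Ctr9 and Myt1l.

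Genes outside these lists followed the mean profile of the 7 regulators closely over the 6 embryos. The 5 with the highest Pearson correlation were Unc119b (0.998), Anks6 (0.996), Mdm2 (0.993), Phkg2 (0.992) and Efl1 (0.991). They were the best matches of all tested genes, read on the same 6 arrays as the regulators, and the correlations are a description only. Each was highest in wild-type sample 3 and lowest in transgenic sample 3, with genotype differences of -0.27 to -0.19, and none passed (limma adjusted p of 0.675 to 0.691).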

How the data were processed

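RNA of 6 embryos, 200 ng each, was amplified, labelled with biotin and hybridised to 6 arrays on 1 slide, per the labels' protocols. The deposited scanner table holds 1 linear intensity per probe and array. The submitters' processing notes name BeadStudio (version not given in the sources used here). The other deposited table holds the authors' log2 values. Set against the scanner table, they match log2 intensities after quantile normalization to within 5e-09, with no background subtracted, and have a median of 7.18 in every array. These values were the main ones here.

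Probes were named through the platform annotation and the RefSeq genes of GRCm38.p6, which named 23978 of 25697. Samples were grouped by the labelled genotype. Every sample is a separate animal in the labels. The 12848 probes with a 6-array mean above that of the median probe were tested with limma 3.58.1 in R 4.3.3 (lmFit, eBayes, two-sided, no covariate), with Benjamini-Hochberg adjustment over all of them and 0.05 as the threshold. With 3 samples a group, the smallest p of an exact permutation test is 0.1. The test was tested on simulated data. SDs are over 3 samples, and intervals are limma's 95% intervals.

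The members and lists were chosen with earlier results of these data known, so counts and medians are descriptions. Named were all probes of the members, the 2 genes of smallest p in each partner list, and the 5 genes most like the members. Tbr1, En2, Dcx, Mapt, Krt8, Krt18 and the other marker genes named are examples outside this rule. Dcx and Mapt had the smallest limma p of the neuron list. Alternatives were normexp with an offset of 50, median scaling, cyclic loess, no filter, the mean of a gene's probes, array weights, the animal number range as a block, and left-out samples.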

Additional observations from a re-analysis of the deposited data

How the results depend on the processing

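The number of probes past the adjusted threshold was 0 in the main setting and in all 15 alternatives run. The median of the 7 differences ranged from -0.20 to -0.08 over 16 alternatives, and the number of regulators below 0 was 5 or 6. None of the 7 passed in any of them, with limma adjusted p between 0.355 and 0.998. Of 112 recomputed differences 108 kept their sign. Some of these could not change. Dropping the filter or adding the number range as a block leaves every difference as it was. Averaging probes does the same for a gene with 1 probe. The Adnp difference became 0.041 when transgenic 1 and wild-type 2 were left out. The Setd5 difference became 0.0415 among the 4 embryos numbered over 200, and ranged from -0.28 to 0.17 with 1 sample left out, at 0.02 without transgenic 2 and 0.17 without wild-type 3. The cause of these turns beyond the fewer samples was not tested.

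The number of probes at an unadjusted p under 0.05, 897, was 1629 with no intensity filter, which tests all probes, and 1996 when the range of animal numbers was a block. It was 342 when transgenic 1 and wild-type 2 were left out and 315 when wild-type 2 and transgenic 3 were, the latter chosen after seeing the data. Leaving out 1 sample gave 422 to 1124, the lowest being 422 (wild-type 2 left out) and 548 (transgenic 1 left out). The split of 446 higher and 451 lower became 776 and 106 under median scaling and 540 and 338 under cyclic loess. The signs of the 7 differences held under both and under normexp. Under median scaling, however, the Setd5 difference of -0.003 could not be told from 0. No paired analysis was possible because the labels give the animals numbers that no transgenic and wild-type sample share. Tbl1xr1, Dyrk1a, all Pogz probes and the dim Ehmt1 probes are limited by signal near the array median.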
